A study of Solanum lycopersicum with 6 samples.

Results

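Chromosomes 5 and 11 of tomato (Solanum lycopersicum) carried 10956 regions of accessible chromatin, 5807 on chromosome 5 and 5149 on chromosome 11, of 80175 on the 12 chromosomes and 80696 in the whole list. They were chosen by a count of these same regions: with each chromosome divided into 3 equal parts, the first part held more of them than the last on both. The values of that count are therefore given as a description and nothing is supported with them.

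Accessible regions were mapped by ATAC-seq, in which a transposase cuts and tags DNA that is free of nucleosomes and stretches with many insertions are listed as peaks. The tissue was inflorescences of plants of the M82 cultivar carrying anantha-e1546, grown under 16 h of light and 8 h of dark. ANANTHA is an F-box gene needed for floral identity, and without it meristems keep branching where flowers would form. The 6 replicates, of 1 g of tissue each, form 1 group, with no wild type or other tissue beside them, and whole inflorescences hold several cell types. Only 1 peak list for the 6 replicates together was analysed here, so no value has a replicate error, sequencing depth is unknown and no difference below was tested. The spread shown is the range over the other 10 chromosomes.

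Tomato chromosomes have gene-rich euchromatin toward their ends and long blocks of repeat-rich, compact heterochromatin around the centromere. Accessible regions in plants are mostly promoters and other regulatory sequence near genes. How far the open, gene-rich part reaches inward on either side differs between chromosomes. A stretch without a peak can be compact chromatin, but may also be one where short reads could not be placed. The treatment of such reads is not given in the sources used here. Positions are 1-based on build SL4.0 and each chromosome is measured to the end of its last peak.

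On chromosome 5 the first part held 52.8% of the peaks, the middle part 8.78% and the last part 38.4%. On chromosome 11 these shares were 48.8%, 9.42% and 41.8%. In numbers, chromosome 5 had 3066 peaks in the first part and 2231 in the last, and chromosome 11 had 2514 and 2150. The chromosomes thus sit at different distances from an even balance, with the first part ahead by 14.4 percentage points on chromosome 5 and by 7.07 on chromosome 11. Just outside the rule was chromosome 12, where the first part had 41.3% and the last 51.03%, and next came chromosome 9 with 39.8% and 53.9%. In order of the difference the other 10 chromosomes ran down to chromosome 2, with 4.23% in the first part and 71.6% in the last. The highest share in the last part was 72.4%, on chromosome 1.

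**Figure D1:**
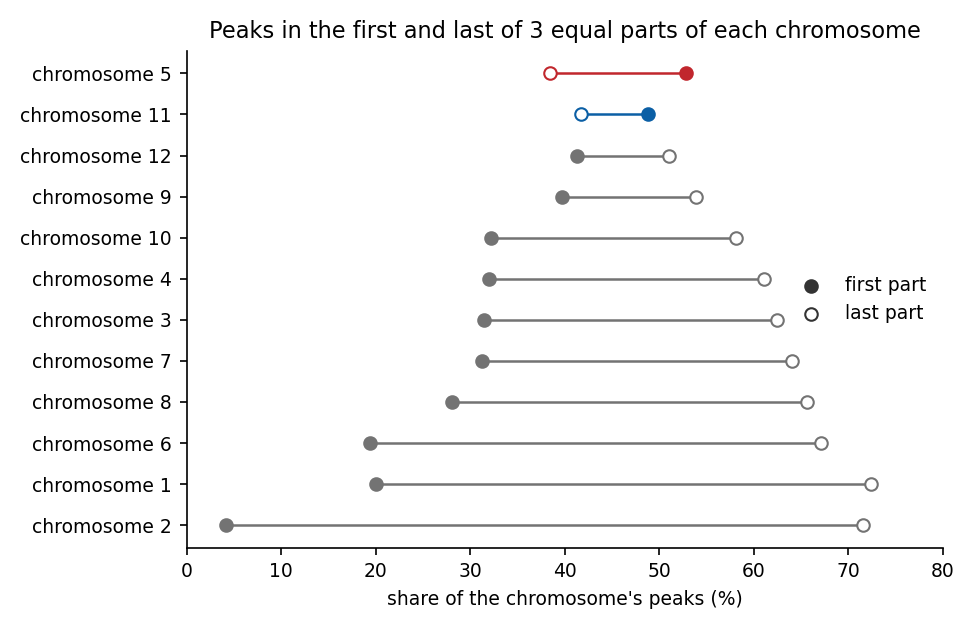
Share of each chromosome's peaks (%, horizontal axis) in the first (filled circles) and the last (open circles) of 3 equal parts, with chromosomes in order of the difference. The filled circle lies to the right of the open one on chromosome 5 (52.8% and 38.4%) and chromosome 11 (48.8% and 41.8%), and to its left on the other 10.

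Both chromosomes were also cut into peak-rich ends and a peak-poor interior. Bins of 1 Mb were set against the average bin of the 12 chromosomes, which held 103.1 peaks, and the unbroken stretch of bins with the largest summed deficit was taken as the interior. The ends are called arms here, without reference to the centromere, whose position was not used. Chromosome 5 had a first arm from 1 to 9000000, an interior from 9000001 to 58000000 and a last arm from 58000001 to 65263616. Chromosome 11 had a first arm from 1 to 9000000, an interior from 9000001 to 47000000 and a last arm from 47000001 to 54361956.

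Both first arms were thus 9 Mb long, and the last arms were 7.26 Mb on chromosome 5 and 7.36 Mb on chromosome 11. The first arms of the other chromosomes spanned 4 to 8 Mb on the 9 that have one, and their last arms 9.69 to 24.4 Mb. The first arm was the longer one on 2 chromosomes, 5 and 11, and the shorter one on 9. These lengths follow from the same counts that chose the chromosomes. Both last arms were shorter than any on the other 10 chromosomes, and both first arms longer.

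The arms held 2488 and 1838 peaks on chromosome 5, which left 1481 (25.5%) for the interior. On chromosome 11 they held 2057 and 1833 peaks, leaving 1259 (24.5%). Elsewhere the interior held between 12.4% and 30.9% of a chromosome's peaks. Of the span, the interior took 75.1% on chromosome 5 and 69.9% on chromosome 11, against 52.9% to 77.2% on the other 10.

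The first arms of the pair differed in how densely they were occupied. That of chromosome 5 had 276.4 peaks per Mb (95% exact Poisson interval 265.7 to 287.5) and that of chromosome 11 had 228.6 (218.8 to 238.7). The last arms were closer, at 253.04 peaks per Mb (241.6 to 264.9) on chromosome 5 and 248.98 (237.7 to 260.6) on chromosome 11. Such intervals allow for counting error alone and treat neighbouring peaks as independent, which they are not. Chromosome 5 was therefore denser at its first arm than at its last, by 23.4 peaks per Mb, whereas on chromosome 11 the first arm was sparser than the last by 20.4 peaks per Mb. The order on chromosome 11 depended on where the edge was set and on how peaks were counted. The first arm was sparser by 2.97 peaks per Mb with bins set against the chromosome's own mean, and after merging peaks within 100 bp it was denser by 3.27. Of the other 9 chromosomes with a pair of arms, 5 were denser in the first and 4 in the last.

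Coverage set the pair further apart. Peaks covered 28.7% of the first arm of chromosome 5, the highest share among the 23 arms of the 12 chromosomes, and 22.4% of the first arm of chromosome 11, the lowest of the 23. The last arms were at 25.6% on chromosome 5 and 24.1% on chromosome 11, ranks 13 and 18 of the 23. The arms' edges were set on peak counts, and the place of both first arms in this order shifted with how they were set. Over the settings tried, the first arm of chromosome 5 ranked between 1 and 3 for coverage and between 3 and 7 for peaks per Mb. That of chromosome 11 ranked between 21 and 23 for coverage and between 19 and 23 for peaks per Mb. Over the outermost 5 Mb alone, where no edge is chosen from the peaks, the first end was 34.6% covered on chromosome 5 and 27.4% on chromosome 11, against 21.4% to 31.8% at the first ends of 9 other chromosomes. Among the 23 ends compared in this way the first end of chromosome 5 ranked 5 and that of chromosome 11 ranked 19. Neither was thus an extreme of the 23 over equal lengths, although that of chromosome 5 was the most covered of the first ends.

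Peaks of the sparser arm were also less tightly packed. On chromosome 11 the share of first-arm peaks with another within 100 bp was 37.5%, the lowest of the 23 arms, and the median distance to the nearest peak was 228 bp, the longest of them. In the first arm of chromosome 5 these values were 43.1% and 145.5 bp. The last arms had 43.6% and 156.5 bp on chromosome 5, and 41.7% and 205 bp on chromosome 11. Over the outermost 5 Mb the first end of chromosome 11 had 37.2%, rank 22 of the 23 ends, and 229.5 bp. These shares and distances were not matched for density. Joining peaks over gaps of up to 100 bp left 208.2 regions per Mb, with a median length of 923 bp, in the first arm of chromosome 5, and 179.7 per Mb, with a median of 813 bp, in that of chromosome 11. The first arm of chromosome 5 thus had both more and longer accessible regions per Mb than that of chromosome 11.

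Counted inward from the first end, chromosome 5 held 331, 334, 369, 350 and 297 peaks in its first 5 Mb. Chromosome 11 held 252, 286, 260, 315 and 273 in the same steps. The lowest of 9 other chromosomes had 264 peaks in the first Mb, so chromosome 11 began below all of them, and its count stayed under their median until the fourth Mb, where that median was 275. The third Mb of chromosome 5, with 369 peaks, exceeded the highest of the 9 others there, 337.

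Further in from the first end, both chromosomes stayed dense for longer than the 9 others did there. The steps counted from either end lie in the outer parts whose counts chose the chromosomes, so these profiles are a description only. At the eighth Mb from the first end chromosome 5 had 169 peaks and chromosome 11 had 103, against a median of 65 on the 9 others (19 to 145). The ninth Mb held 153 and 127 peaks, against 3 to 111 elsewhere. The first step below 100 peaks was the tenth Mb on both, with 56 on chromosome 5 and 77 on chromosome 11. The decline was gradual, and chromosome 5 came back to 104 peaks in the eleventh Mb.

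From the last end inward, chromosome 5 held 301, 329, 333, 294 and 242 peaks and chromosome 11 held 310, 237, 363, 240 and 280. Both lay within the range of the 10 other chromosomes over the first Mb, which was 247 to 358. The second Mb of chromosome 11 fell just below the 240 to 399 found elsewhere, and the fourth Mb below the 261 to 379 found there, with the third in between near the top of the range (269 to 368). Chromosome 5 fell below the 10 others in the fifth Mb (263 to 374) and in the sixth, with 148 peaks against 178 to 372. By the ninth Mb, chromosome 5 had 53 and chromosome 11 had 81 peaks, against 131 to 359 on the 10 others.

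Further inward from the last end the pair differed. On chromosome 11 the count went through 139 and 81 in the eighth and ninth Mb to 1, 1 and 3 peaks in the tenth, eleventh and twelfth. On chromosome 5 it went through 106 and 53 to 54, 13 and 43 in the same steps. The lowest count in the tenth Mb of the 10 other chromosomes was 101, and in the eleventh it was 5. The nearly empty steps of chromosome 11 do not adjoin its last arm, since the bins next to the arm held 103 and 47 peaks.

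**Figure D2:**
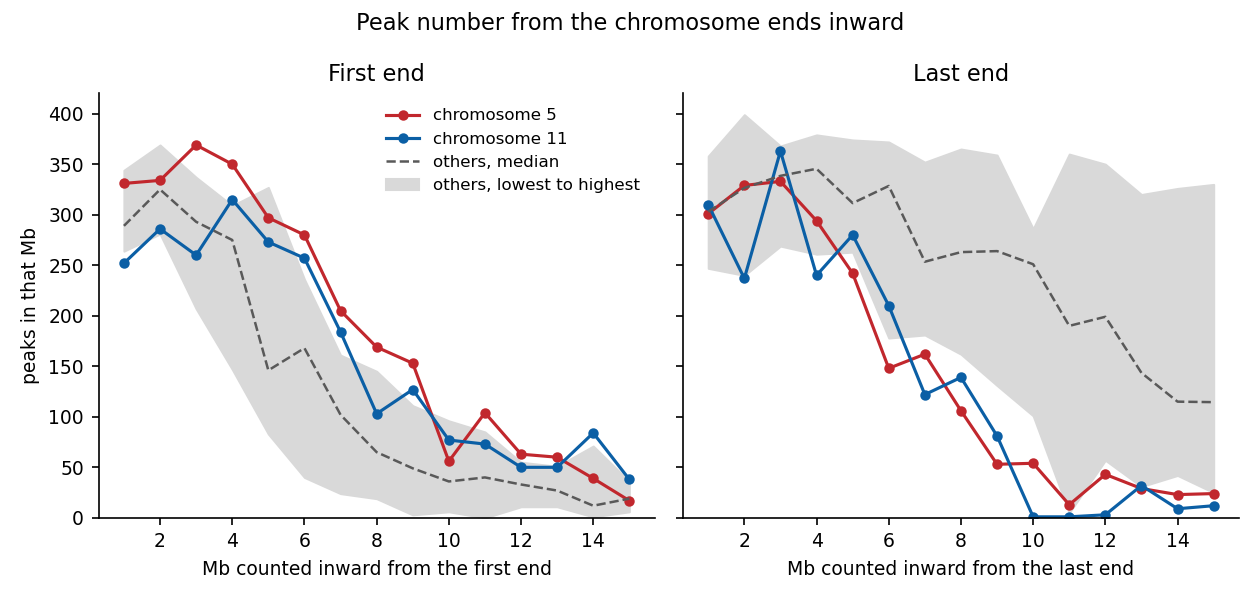
Peaks per Mb (vertical axis) in steps of 1 Mb counted inward from the first end (left) and the last end (right) of chromosomes 5 and 11, with the median and the full range of the other chromosomes (9 at the first end, where chromosome 2 is left out, and 10 at the last). Chromosomes 5 and 11 stay above the median of the others at the first end beyond the fourth Mb, except in the fifteenth Mb for chromosome 5, and lie below all others from the seventh to the tenth Mb of the last end, where chromosome 11 drops to 1 peak.

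Peak strength was not used to choose the chromosomes. It is given by the authors' q value for each peak, written as −log10 q, so that larger values mark stronger peaks. The median −log10 q was 3.68 in the first arm of chromosome 5 (quartiles 2.26 and 6.90) and 3.30 in its last arm (2.24 and 6.43). On chromosome 11 it was 3.62 in the first arm (2.29 and 6.84) and 3.42 in the last (2.29 and 6.45). The quartile ranges overlap almost entirely, so the arms differ in their medians and upper quartiles rather than as separate groups.

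The first arm had the higher median by 0.38 on chromosome 5 and by 0.19 on chromosome 11. Of the 9 other chromosomes with both arms, 2 also had the higher median in the first arm (chromosomes 9 and 12), and 7 had it in the last, with differences from -0.45 to 0.09. Chromosomes 5 and 11 therefore had the largest and the next largest first-arm excess of the 11, and they kept those places with weaker peaks left out, with peaks within 100 bp merged and with the arms cut from other bins. The median of the last arm of chromosome 5 was the lowest of the 12 last arms, and that of its first arm the highest of the 11 first arms. In 9 of the 11 chromosomes the longer arm was also the one with the higher median, the exceptions being chromosomes 9 and 12. The same peaks set the arm lengths, so length and strength are not separate observations.

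Strong peaks were likewise more frequent in the first arms. A −log10 q of 6 or more was carried by 30.9% of the peaks in the first arm of chromosome 5 (95% exact binomial interval 29.1 to 32.7) and by 27.3% in its last arm (25.3 to 29.4). On chromosome 11 these shares were 30.5% (28.5 to 32.5) and 27.99% (25.9 to 30.1). The intervals of first and last arm overlap on both chromosomes. The class from 6 to 12 made most of it, with 24.2% of first-arm and 20.8% of last-arm peaks on chromosome 5 and 24.2% and 21.99% on chromosome 11. Peaks of 12 or more made up 6.71% in the first and 6.47% in the last arm of chromosome 5, and 6.32% and 6.001% on chromosome 11. Of the 9 other chromosomes with both arms, 1 (chromosome 12) had the higher share of 6 or more in the first arm and 8 in the last. Over the outermost 5 Mb that share was 31.5% at the first and 28.2% at the last end of chromosome 5. It was 30.01% and 29.5% on chromosome 11, and 29.3% and 27.98% on chromosome 12.

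Within the outermost 5 Mb of each end, a comparison of equal lengths, the median −log10 q was 3.80 at the first and 3.45 at the last end of chromosome 5. On chromosome 11 it was 3.65 and 3.59. The first end had the higher value on 3 of the 11 chromosomes with a pair of arms, namely 5, 11 and 12. For chromosome 5 the difference was 0.35, the largest of the 11, while for chromosome 11 it was 0.06, below the 0.13 of chromosome 12. The last end of chromosome 5 was not the lowest in this comparison, since that of chromosome 12 had 3.36.

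**Figure D3:**
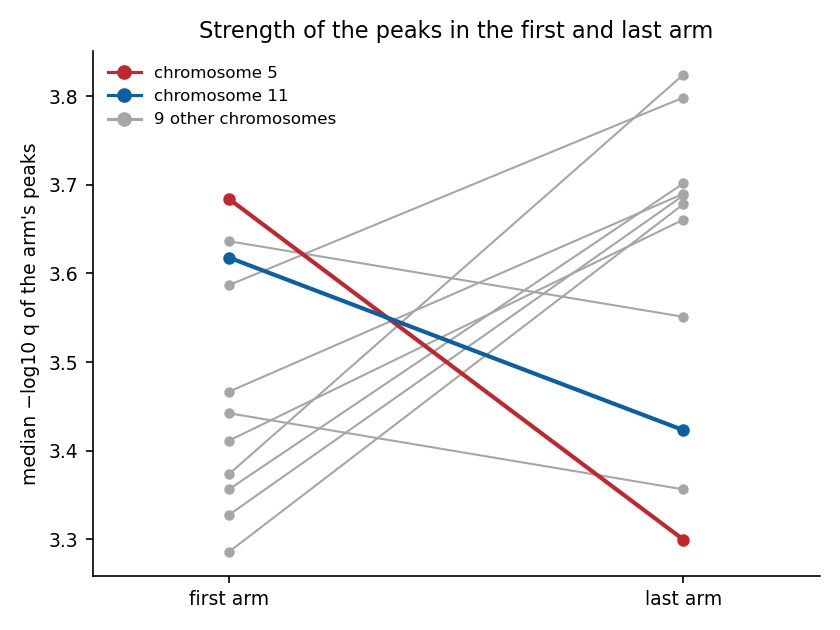
Median −log10 q of the peaks (vertical axis, not starting at 0) in the first arm and the last arm, with 1 line per chromosome. The lines slope down for chromosome 5 (3.68 and 3.30) and chromosome 11 (3.62 and 3.42) and up for 7 of the 9 other chromosomes with both arms. Chromosome 2, which has no first arm, is left out.

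Interior peaks were weaker on both chromosomes. The median −log10 q was 3.50 over the arms and 3.14 in the interior of chromosome 5, and 3.53 over the arms and 3.28 in the interior of chromosome 11. The arms had the higher median on all 11 chromosomes with both arms, by 0.36 on chromosome 5, 0.25 on chromosome 11 and 0.19 to 0.75 on the 9 others. The difference on chromosome 11 was 0.13 with peaks of q above 0.01 left out, and 0.12 between the outer and the middle of 3 equal parts. The share of very strong peaks did not follow this order on chromosome 5. A −log10 q of 12 or more was carried by 8.10% of interior peaks (95% exact binomial interval 6.76 to 9.61). The shares were 6.71% (5.76 to 7.77) in its first arm and 6.47% (5.39 to 7.70) in its last, so the intervals overlap. On chromosome 11 the interior share was 6.04% (4.79 to 7.50). This share was not computed for the other chromosomes.

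Peak width set the interiors of both chromosomes at the low end. The median peak was 717.5 bp wide in the arms and 666 bp in the interior of chromosome 5, and 699 bp in the arms and 651 bp in the interior of chromosome 11. In the interiors of the other 10 chromosomes the median width was 681 to 759 bp, so the values of chromosomes 5 and 11 were the lowest of the 12. The arms exceeded the interior by 51.5 bp on chromosome 5 and by 48 bp on chromosome 11, and by -55 to 32 bp on the 9 others with both arms. This order did not hold once peaks within 100 bp were merged, where the interiors of chromosomes 5 and 11 ranked 7 and 9 of the 12 from the widest. With bins shifted by 500 kb chromosome 5 ranked 10. Between the outer and the middle of 3 equal parts the difference was 38.5 bp on chromosome 5, rank 1 of 11 chromosomes, but 7 bp on chromosome 11, rank 6. The middle part of chromosome 11 then had a median width of 683 bp, rank 9 of 11 from the widest.

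Of the arms, the first arm of chromosome 5 had the widest median peak of all 23, at 735 bp (quartiles 456.8 and 1266 bp). Over the outermost 5 Mb of that end the median was 725 bp, rank 6 of the 23 ends. Its last arm had 697.5 bp, and the arms of chromosome 11 had 704 bp and 692 bp. The order within chromosome 11 turned when weaker peaks were left out, with the first arm 8 bp below the last at a q at or below 0.01, and 45 bp below it after merging.

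**Figure D4:**
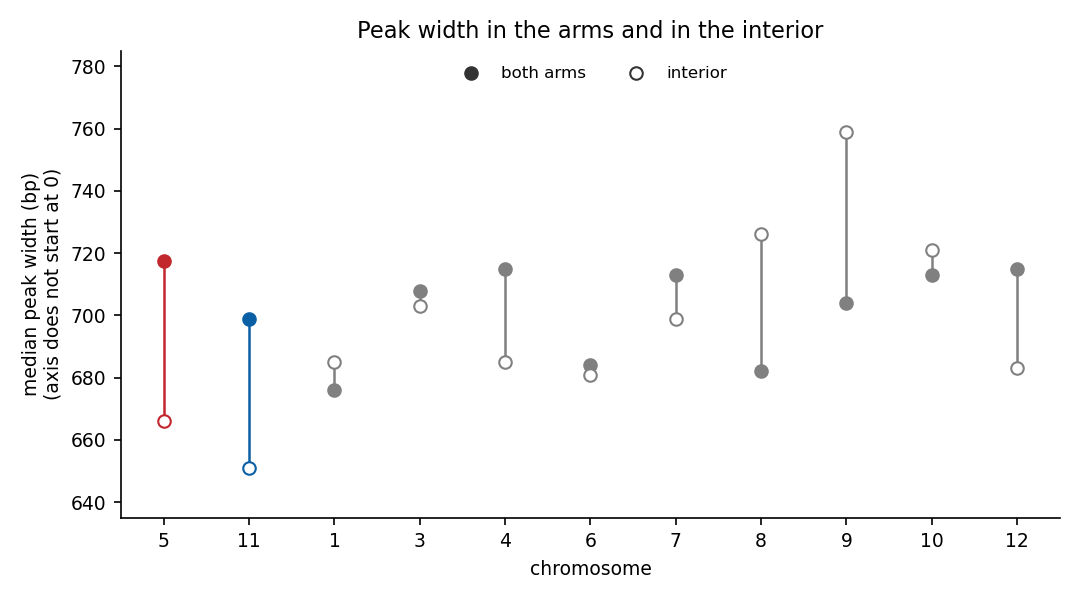
Median peak width in bp (vertical axis, not starting at 0) over both arms (filled circles) and in the interior (open circles) of 11 chromosomes, with 5 and 11 at the left. The open circles of chromosome 5 (666 bp) and chromosome 11 (651 bp) lie below those of the 9 others. Chromosome 2, with 1 arm, is left out.

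Neighbours were scarcer in the interior. Another peak lay within 2 kb of 91.96% of the arm peaks and 80.6% of the interior peaks on chromosome 5, and of 88.7% and 78.9% on chromosome 11. On the 9 others the shares were 89.01% to 91.5% in arms and 76.1% to 82.2% in interiors. The arm share of chromosome 5 was thus above this range, and that of chromosome 11 below it. The interior was 8.80 times sparser than the arms on chromosome 5 and 7.18 times on chromosome 11 (7.45 to 10.4 times on the 9 others). The shares of peaks with a neighbour were not matched for density.

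The interiors were uneven along their length. Beside the first arm, the outermost 5 Mb of the interior held 64.4 peaks per Mb (95% exact Poisson interval 57.6 to 71.8) on chromosome 5 and 66.8 (59.8 to 74.4) on chromosome 11. Beside the last arm these values were 51.2 (45.1 to 57.9) and 33.0 (28.2 to 38.4). Between these zones, the core held 23.2 peaks per Mb on chromosome 5 (21.7 to 24.7) and 27.1 on chromosome 11 (25.2 to 29.1), against 16.3 to 35.9 on the other 10. The median −log10 q was lowest in the core on both, at 3.02 on chromosome 5 and 3.15 on chromosome 11.

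In the interior of chromosome 5 the median bin of 1 Mb held 20 peaks, and 8 of 49 bins held fewer than 10. At least 3 Mb from its edges, the highest count was 82 peaks, in the bin at 20000001 to 21000000. It was followed by 79 peaks at 22000001 to 23000000 and by 60 peaks at 12000001 to 13000000. The bins of 82 and 79 peaks enclose a bin with 1 peak. Most of that bin falls in a stretch without any peak from 20831622 to 21924409, 1.09 Mb long. The median −log10 q was 3.14 in the dense bin before the empty one and 2.46 in the dense bin after it.

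In the interior of chromosome 11 the median bin held 24.5 peaks, and 8 of 38 bins held fewer than 10. At the same distance from the edges, 84 peaks were found both at 13000001 to 14000000 and at 30000001 to 31000000, and 75 peaks at 31000001 to 32000000. The bins of 84 and 75 peaks from 30000001 onward are neighbours and form a peak-rich island, with 42 peaks in the bin before them and 53 in the bin after. The bin at 13000001 to 14000000 had a median −log10 q of 4.41, above the 3.28 of the interior as a whole, and the bins of the island had 3.66 and 3.70. The highest bin count anywhere in the interior was 104 on chromosome 5 and 103 on chromosome 11, both near an edge, and 82 to 130 on the other 10.

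**Figure D5:**
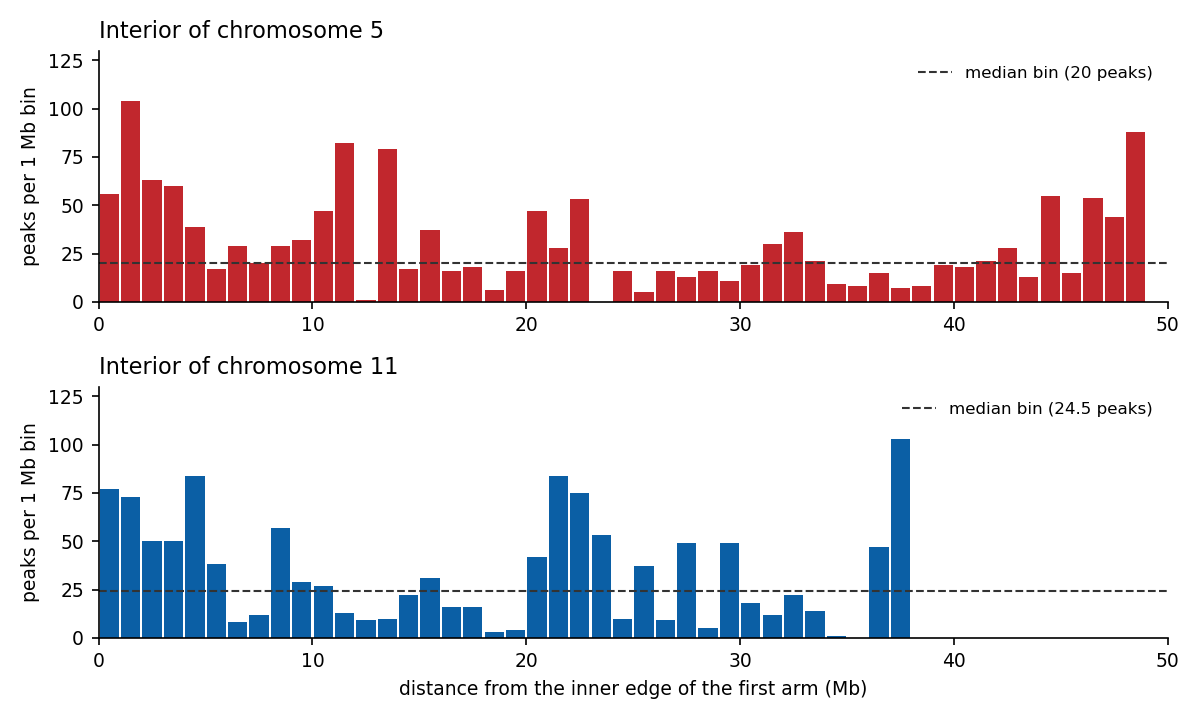
Peaks per 1 Mb bin (vertical axis) in the interior of chromosome 5 (top, 49 bins) and chromosome 11 (bottom, 38 bins) by distance from the inner edge of the first arm; dashed lines are the median bins of 20 and 24.5 peaks. The bins of 82 and 79 peaks on chromosome 5 stand on either side of a bin with 1, and chromosome 11 shows a group of 84, 75 and 53 peaks and a nearly empty stretch that is followed by bins of 47 and 103 peaks before the last arm begins.

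Chromosome 11 held the longest nearly peak-free stretch. From 42551488 to 45230035, over 2.68 Mb, it had a single peak, at 43704586 to 43704993, 408 bp wide with a −log10 q of 1.95. This was the longest stretch with 1 peak on the 12 chromosomes, the other 10 reaching 1.10 to 2.27 Mb. Leaving out peaks with a q above 0.01 made it 3.09 Mb, from 42551488 to 45641861, with 2 weaker peaks inside, and the other 10 then reached 0.987 to 2.24 Mb. Without any peak at all, the longest stretch of chromosome 11 was 1.53 Mb (43704994 to 45230035), within the 0.987 to 2.24 Mb of the others. On chromosome 5 the longest was 1.21 Mb, from 33248855 to 34461119, with 1.10 Mb from 31916194 to 33011984 close before it.

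A pair of very strong peaks lay soon after the empty stretch of chromosome 11, still in the interior. They ran from 45993153 to 45995323, with a −log10 q of 23.2, and from 45995359 to 45998137, with 22.2, and 35 bp separated them. The shortest gap between any peaks of the list was 31 bp, so these 2 narrowly stayed separate entries. They ranked 16 and 40 of all 80175 peaks in strength. The strongest peak of chromosome 11 followed at the start of the last arm, at 47450544 to 47452863, with 23.7 (rank 13). The remaining 2 of its 5 strongest lay on either side of the inner edge of the first arm. The one inside the interior, at 9562818 to 9566308, had 22.5, and the one in the arm, at 8518472 to 8522219, had 22.2. All 5 were therefore within 2 Mb of an edge between an arm and the interior.

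On chromosome 5 the strongest peaks were spread differently. The first was at 3926022 to 3927676, with a −log10 q of 23.1 (rank 18 of all), and the next at 4033872 to 4041542, with 22.4, both in the first arm. The last arm held the one at 63753984 to 63758001, with 21.9. The interior held a peak of 21.6 at 13198483 to 13200944 and a peak of 21.5 at 54863693 to 54869343. The peak starting at 54863693 stood alone, with 136729 bp to its nearest neighbour and a width of 5651 bp. By contrast, 11 other peaks lay within 10 kb of the strongest. Which genes lie at these positions was not analysed here.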

How the data were processed

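ATAC-seq libraries of 6 replicates in 1 group were made with 100000 nuclei per reaction, treated for 30 min at 37 °C, per the labels' protocols. Trimmomatic, BWA, Picard, SAMtools, bedtools and Genrich 0.6 are named in the submitters' processing notes, with no roles. A single list pooling the replicates was deposited by the authors, with a peak score (a whole number up to 1000) and, inside the peak name, other text giving the −log10 of the q value. Build SL4.0 was read from the sequence names. The list's title carries a q of 0.5 and a g of 30, read here as calling threshold and joining distance in bp. The largest q of any listed peak was 0.113. The shortest gap between peaks was 31 bp, and peak counts, widths, distances and runs depend on such joining. Sequencing depth is not given, and no sample could be left out or weighed singly. The members, the measures and the alternatives were chosen with earlier results of these data known.

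Peaks were placed by midpoint. Arms and interiors were found from 1 Mb bins. The search was checked on simulated counts with a sharp step at each edge. The edges here are gradual, so that check does not show how well they were placed. Merging and neighbour distances were checked on a small made-up set of peaks. No statistical test was run, since the list is 1 sample. Regions named are the 5 strongest and 3 widest peaks, the longest run, the 3 highest inner bins and the longest gaps of each chromosome. Gene positions and sequences of SL4.0 were not used here, so the planned gene comparison was not run. Unplaced sequence was left out. Alternatives were a q at or below 0.05 or 0.01, merging over 100 bp, other bins, other ways to divide the chromosomes and another neighbour distance. Computations ran in Python 3.11.15 with pandas 2.3.3, scipy 1.17.1 and numpy 2.4.6, and plots were drawn with matplotlib 3.10.9.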

Additional observations from a re-analysis of the deposited data

How the results depend on the processing

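Of 142 values recomputed for 30 results, 127 stayed within the counting interval or tolerance of the reported value, 12 moved beyond it and 3 changed direction. The tolerance was 1.5 times for stretch lengths, runs and bin counts, 10% for the share of sequence covered and 1 bin for arm lengths. Several of the recomputed values could change little by construction. A q at or below 0.05 dropped 0.69% of the peaks of chromosome 5 and 0.89% of chromosome 11. Merging over 100 bp cannot alter the longest stretch without a peak or a run joined over 500 bp. The interval for medians was wide, and the arms-to-interior width difference of chromosome 11 counted as unmoved at 7 bp against 48 bp. The 127 is therefore no measure of stability. No test exists whose call could be lost. Of the peaks in the outer parts of chromosome 11, 53.9% lay in the first part, which moved to 52.03% with the chromosome split at its midpoint. The interior held 25.5% of the peaks of chromosome 5, and 23.99% with bins set against the chromosome's own mean. For chromosome 11 the reported 24.5% became 22.5% with its own mean, 23.1% with 500 kb bins and 22.9% with peaks within 100 bp merged. Merging also raised the width difference between arms and interior of chromosome 5 to 120.5 bp. The direction changed for the width difference between first and last arm of chromosome 11, which became -8 bp once peaks of q above 0.01 were dropped and -45 bp with merging, and the cause was not tested. It also changed for the share of the peaks of both outermost 5 Mb that lay in the first end of chromosome 11, 49.2% as deposited and 50.3% with merging. The outermost 5 Mb as an alternative for coverage, strength and width, the shifted bins and the ranks over equal parts were added after the values had been seen. No paired analysis was possible because the list does not separate the replicates, which also could not be left out. Depth is unknown, so sequence without a peak is sequence without a call.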

Other observations

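Peaks of extreme width and isolated peaks were spread over chromosomes 5 and 11 in the following way. Peaks of 5 kb or more numbered 46 on chromosome 5 (0.792% of its peaks), with 24 in the first arm, 7 in the interior and 15 in the last arm. On chromosome 11 there were 35 (0.680%), with 18, 4 and 13 in the same parts, and over the 12 chromosomes the share was 0.844%. Their median −log10 q was 14.4 on chromosome 5 and 13.2 on chromosome 11. Peaks of 250 bp or less numbered 290 on chromosome 5 (4.99%) and 228 on chromosome 11 (4.43%), against 4.57% over the 12 chromosomes, and had a median −log10 q of 2.80 and 2.78.

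A peak without any other within 20 kb occurred 90 times on chromosome 5 (1.55%) and 74 times on chromosome 11 (1.44%), against 1.16% over the 12 chromosomes. The other 10 chromosomes had 46 to 131 each. This was not particular to chromosomes 5 and 11, since chromosome 12 had 97 among 5412 peaks. On chromosome 5, 85 such peaks were in the interior, 2 in the first arm and 3 in the last. On chromosome 11, 55 were in the interior, and the first arm held 10 and the last arm 9. The first arms of 9 other chromosomes held 0 to 4 such peaks, but they were 4 to 8 Mb long, against 9 Mb on chromosome 11. Over the outermost 5 Mb the first end of chromosome 11 held 2. The first ends of the 9 others then ran from 0, as on chromosome 7, to 4 on chromosome 1. The higher number in the first arm of chromosome 11 was therefore not seen over equal lengths.

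The widest peak of chromosome 5 spanned 12306 bp at 59484484 to 59496789 in the last arm, with a −log10 q of 20.1. Next came 11016 bp at 8973591 to 8984606, at the inner edge of the first arm, and 10910 bp at 64937368 to 64948277 near the last end. On chromosome 11 the widest spanned 12549 bp at 54243210 to 54255758, with a −log10 q of 19.5, close to the last end. It was followed by 8184 bp at 31357349 to 31365532, inside the interior island, and by 8087 bp at 4900990 to 4909076.

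For runs of peaks separated by 500 bp or less, both chromosomes lay within the range of the others. The longest on chromosome 5 covered 19924 bp with 13 peaks, at 818780 to 838703 in the first arm. The longest on chromosome 11 covered 23468 bp with 10 peaks, at 53903542 to 53927009 in the last arm, and a run of 22393 bp with 6 peaks lay just before it, at 53829615 to 53852007. On the other 10 chromosomes the longest run was 19270 to 53015 bp. Joined over 100 bp in place of 500 bp, the longest run was 13212 bp on chromosome 5 and 20807 bp on chromosome 11.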
